A study of Mus musculus with 56 samples.

Results

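The RGS (regulator of G-protein signalling) genes described here are Rgs4, Rgs7, Rgs8, Rgs10, Rgs12, Rgs14, Rgs16, Rgs17 and Rgs20, 9 of the 23600 genes that had a probe set of their own on the arrays. They were found by symbol, with every probe set that named 1 gene only, which gave 35 probe sets of 79697. They were chosen by their measured log2 differences with topotecan at 1 µM and with irinotecan, where Rgs8 and Rgs16 were higher with topotecan and close to their controls with irinotecan. Those comparisons are therefore described below without a test, and tests are kept for the other treatments.

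Total RNA of cultured cortical neurons of C57BL6 mice, taken at embryonic day 13 to 15 and grown for 7 days in vitro, was measured on 56 Affymetrix arrays. On 12 arrays of a design that reads the 3′ end of transcripts were 3 arrays each of ICRF-193 at 3 µM, its vehicle, 300 nM topotecan and its vehicle. On 10 earlier gene-level arrays was a topotecan dose series of 3, 30, 150, 500 and 1000 nM with 1 array each, 300 nM with 2 and vehicle with 3. On 34 later gene-level arrays were topotecan at 1 µM and its vehicle (6 arrays each), irinotecan at 10 µM (3), topotecan for 24 h (1), topotecan for 24 h followed by washout (1) and the 2 vehicle arrays these last 3 treatments share. The same array type held Top1 shRNA, Top2b shRNA and control shRNA, delivered by lentivirus (3 each), DRB at 100 µM and its vehicle (1 each), and 1 array each of paraquat (10 µM) and of hydrogen peroxide (100 µM) with 2 vehicle arrays for both. Drug exposure was 24 or 72 h, the dose of the 24 h groups and the exposure of each other group are not given in the sources used here, and nothing states whether replicates were separate cultures. All values are log2 of the deposited intensity, so a difference of 1 is a doubling, and a probe set's level is compared only with the same probe set on arrays of the same experiment.

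RGS proteins speed up the hydrolysis of GTP on G protein alpha subunits and so shorten the signal of receptors that act through them. Rgs4, Rgs8 and Rgs16 belong to the R4 group of small RGS proteins, which act on the Gi, Go and Gq classes. Rgs7 belongs to the R7 group, whose members are stable only with the beta subunit Gnb5 and are held at membranes by partners such as Rgs7bp and Gpr158. Rgs10, Rgs12 and Rgs14 form the R12 group, in which Rgs12 and Rgs14 are large scaffolds that also bind inactive Gi alpha subunits, and Rgs17 and Rgs20 the RZ group, which acts on Gz among others. In neurons these proteins tune slow inhibition and modulation through muscarinic, metabotropic glutamate, serotonin, GABA and opioid receptors. Topotecan and irinotecan inhibit topoisomerase I, the product of Top1; ICRF-193 inhibits topoisomerase II, of which Top2b is the form of postmitotic neurons. DRB blocks transcript elongation by RNA polymerase II, and hydrogen peroxide and paraquat cause oxidative stress.

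Of the member genes, Rgs8 and Rgs16 are next to each other on chromosome 1, both on the + strand, in the RefSeq annotation of GRCm38.p6. They span 44.71 and 5.12 kb. Rgs4, next to Rgs5 on the same chromosome, spans 6.17 kb, and Rgs7, also on chromosome 1, spans 433.79 kb and is the longest of the 9. The others span 14.96 kb (Rgs14), 45.89 kb (Rgs10), 90.71 kb (Rgs12), 96.75 kb (Rgs17) and 160.73 kb (Rgs20). The stretches upstream of the annotated starts of the 3 R4 genes are printed because these genes are neighbours or of 1 group and differ in response. They are from RefSeq, GRCm38.p6, written 5′ to 3′ on the strand of the gene, and hold only bases before the annotated gene; capitals mark a TATAAA match. Rgs8 is at chr1:153652787-153652958 (+ strand, 172 bases), Rgs16 at chr1:153740103-153740352 (+ strand, 250 bases) and Rgs4 at chr1:169747643-169747892 (- strand, 250 bases).
Rgs8: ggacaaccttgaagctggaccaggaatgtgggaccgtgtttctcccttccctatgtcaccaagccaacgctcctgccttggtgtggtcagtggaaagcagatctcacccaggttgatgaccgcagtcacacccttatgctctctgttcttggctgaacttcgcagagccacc
Rgs16: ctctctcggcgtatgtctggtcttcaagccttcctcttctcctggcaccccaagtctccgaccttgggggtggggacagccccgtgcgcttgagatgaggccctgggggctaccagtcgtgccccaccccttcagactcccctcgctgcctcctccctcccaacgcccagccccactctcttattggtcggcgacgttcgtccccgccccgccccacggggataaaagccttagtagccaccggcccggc
Rgs4: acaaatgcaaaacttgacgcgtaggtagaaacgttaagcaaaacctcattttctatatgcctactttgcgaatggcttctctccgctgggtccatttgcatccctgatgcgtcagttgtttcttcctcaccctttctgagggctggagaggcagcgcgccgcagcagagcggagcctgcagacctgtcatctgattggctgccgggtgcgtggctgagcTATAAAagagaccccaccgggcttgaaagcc
The promoter table held 10 entries for 7 of the 9 genes, each of 250 bases before to 50 after a start. They were searched on both strands for TGACGTCA, CACGTG and TATAAA. None of these contains another, though TGACGTCA and CACGTG share ACGT. The Rgs4 entry held TATAAA 31 bases before the start, and the Rgs7 entry held CACGTG 29 bases before the start. The other 8 entries, all 3 of Rgs8 and that of Rgs16 among them, held none of these letters. Among 32851 promoter entries of all genes, TGACGTCA was in 1.79%, CACGTG in 7.15% and TATAAA in 13.6%.

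Probe sets were tested when their mean over the arrays of the type was above the 40th percentile. That kept 14 of 18 member probe sets on the 3′ arrays, covering all 9 genes, 7 of 8 on the earlier gene-level arrays, where Rgs14 was under the limit and Rgs10 had no probe set, and all 9 on the later ones. Rgs14 and Rgs20 were near the limit on the later arrays, with means of 5.29 and 5.38 against 4.96. The label of cortical neurons was checked on 8 neuron markers, Tubb3, Map2, Rbfox3, Snap25, Stmn2, Nefl, Nefm and Syp, which were all above the limit on the 3′ and later arrays. This check does not tell neurons from a mixed culture, since 7 of 8 astrocyte markers were above the limit on both. Of the fibroblast and mural markers, 8 of 8 were above it on the 3′ arrays and 7 of 8 on the later ones. Some arrays stood apart from others of their group. At 1 µM, where no member was tested, vehicle replicate 4 differed past 1.5-fold from the other vehicle arrays in 5.27 to 9.45% of probe sets. Those differed from one another in 0.645 to 2.32%. Replicate 1 of each shRNA group differed past 1.5-fold from replicates 2 and 3 in 40.1 to 44.1% of probe sets, and its mean intensity was 177.6 to 180.3 against 137.8 to 143.1. In the dose series the third vehicle array differed from the other two in 16.4 and 16.6%, replicate 3 of the 300 nM experiment differed from replicates 1 and 2 in 6.38 to 18.3%, and the 2 vehicle arrays of the oxidants differed from each other in 36.3%. The called values that rest on these arrays are followed by their values without them, or against each vehicle.

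With topotecan at 1 µM, Rgs16 and Rgs8 were the members with the highest differences, Rgs7 the one with the lowest, and the 5 members of the R12 and RZ groups were within 1.5-fold of vehicle. Of all probe sets, 10.7% were past 1.5-fold, against 4 of the 9 members (2 higher, 2 lower), a count from which nothing is read since these values chose the genes. The median difference was 0.01 over the members and -0.0020 over all probe sets. Rgs16 had a lowest, median and highest level of 9.70, 9.97 and 10.18 with topotecan and 7.80, 8.11 and 8.62 with vehicle. The 6 treated arrays lay above all 6 vehicle arrays. The means were 9.96 ± 0.16 and 8.14 ± 0.27 (SD, n = 6), a difference of 1.82 or 3.52-fold. Rgs8, whose product speeds the opening and closing of potassium channels gated by G proteins, had 7.49, 7.78 and 7.89 with topotecan and 5.80, 6.32 and 6.49 with vehicle. Its groups did not overlap either. The means were 7.75 ± 0.14 and 6.26 ± 0.24 (SD, n = 6), a difference of 1.5 or 2.82-fold.

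The third R4 member, Rgs4, which is abundant in cortex, went the other way at 1 µM. Its lowest, median and highest levels were 8.95, 9.42 and 9.64 with topotecan and 9.63, 10.08 and 10.29 with vehicle. The groups met at their edges. The difference was -0.64, or 1.56-fold lower, the member just past 1.5-fold, and the next in size was Rgs14 at -0.37. Rgs7 had 7.55, 8.02 and 8.16 with topotecan and 9.35, 9.76 and 9.82 with vehicle. Every treated array was below every vehicle array. Its difference was -1.78, or 3.43-fold lower. The R12 and RZ genes other than Rgs14 differed by -0.28 (Rgs17), 0.10 (Rgs20), 0.06 (Rgs10) and 0.01 (Rgs12), and in each of them the treated and vehicle arrays overlapped.

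With irinotecan at 10 µM, Rgs7 was the only member of 9 past 1.5-fold, where 8.6% of all probe sets were. Rgs7 was at 8.26, 8.39 and 8.25 with irinotecan and at 9.78 and 9.78 with vehicle, a difference of -1.48. Its treated arrays were far below both vehicle arrays. Rgs16 was at 7.54, 7.50 and 7.54 against 7.14 and 7.17, a difference of 0.37 or 1.30-fold. Those arrays were separated too, by a smaller step. Rgs8 was at 6.46, 6.57 and 6.27 against 6.17 and 6.52, a difference of 0.09, with overlapping groups. Rgs4 differed by -0.25, Rgs12 by 0.38, Rgs20 by -0.31, Rgs14 by -0.22, Rgs17 by 0.21 and Rgs10 by 0.15. All of these but Rgs14 also had treated and vehicle arrays that did not overlap. The share of all probe sets so separated was not counted, so nothing is read from a separation of 3 against 2 arrays. The dose, the vehicle arrays and the level of the normalized arrays differ between the topotecan and irinotecan experiments, so their values stand side by side and were not tested against each other.

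The single array of topotecan for 24 h and the one with washout share their 2 vehicle arrays with irinotecan and have no replicate. After 24 h Rgs7 was at 8.21, a difference of -1.58, and Rgs16 at 8.00, a difference of 0.85. Rgs8 was at 6.42, within the range of its vehicle arrays, with a difference of 0.08. Rgs12 differed by 0.62, or by 0.54 after a new quantile normalization, and Rgs10, the next in size on the higher side, by 0.45. In all, 3 of 9 members were past 1.5-fold (2 higher, 1 lower), where 10% of all probe sets were. After washout Rgs7 was at 9.84 and Rgs16 at 7.35, differences of 0.06 and 0.19. No member was past 1.5-fold after washout, where 0.9% of all probe sets were, and the member farthest from vehicle was Rgs4 at 0.41.

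**Figure D1:**
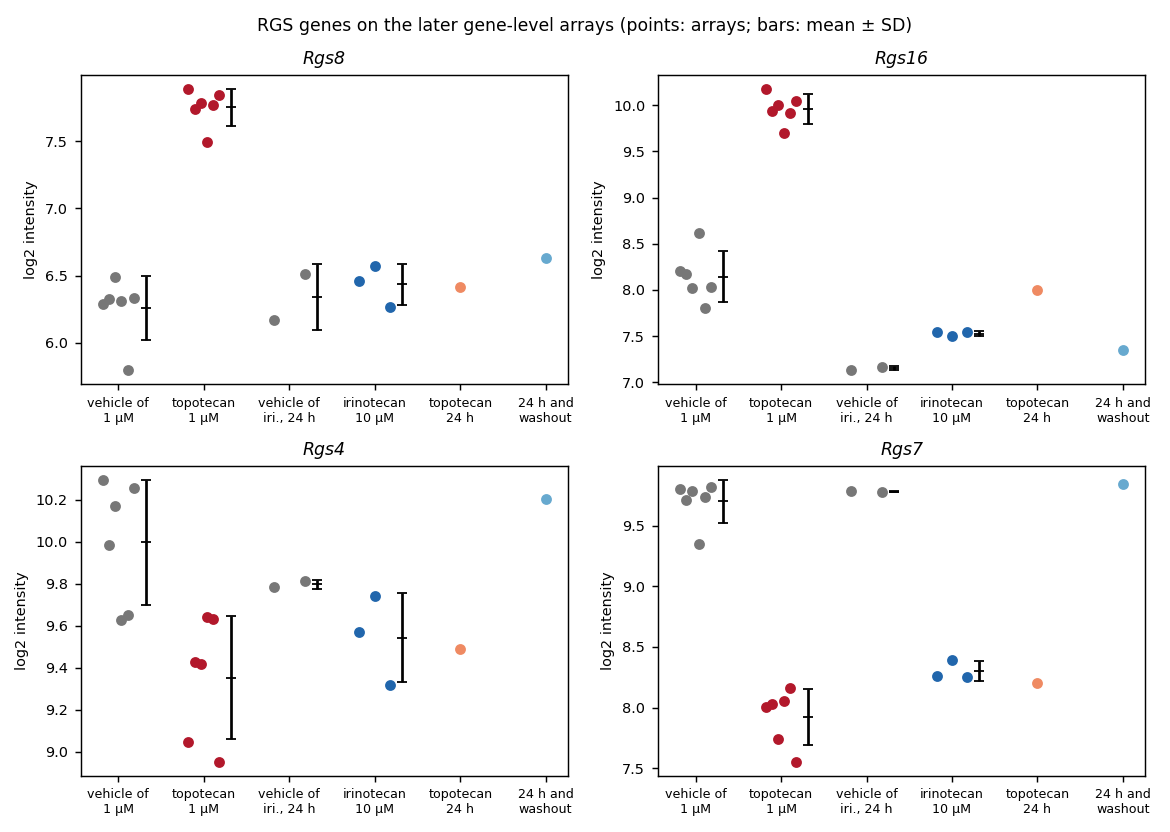
Level of Rgs8, Rgs16, Rgs4 and Rgs7 (log2 intensity) on each array of the topotecan 1 µM experiment and of the irinotecan, 24 h and washout experiment on the later gene-level arrays; points are arrays and bars the mean ± SD where there is more than 1 array. Rgs7 is low with topotecan at 1 µM, irinotecan and topotecan for 24 h and near its vehicle after washout, while Rgs8 stands above its vehicle with topotecan at 1 µM; levels compare only with the vehicle beside them.

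The values of these treatments by gene span are given as a description, since the topotecan 1 µM and irinotecan values chose the genes and the 24 h array shares its vehicle with irinotecan; nothing is read from them about length. Rgs7, the longest of the 9, was at -1.78, -1.48 and -1.58 with topotecan at 1 µM, irinotecan and 24 h, and Rgs16, the shortest, at 1.82, 0.37 and 0.85. Rgs4, nearly as short as Rgs16, was at -0.64, -0.25 and -0.31 in the same order. Rgs8 and Rgs10, of like span, were at 1.5 and 0.06 with topotecan at 1 µM. Rgs20, the second longest, was at 0.10, -0.31 and 0.21.

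**Figure D2:**
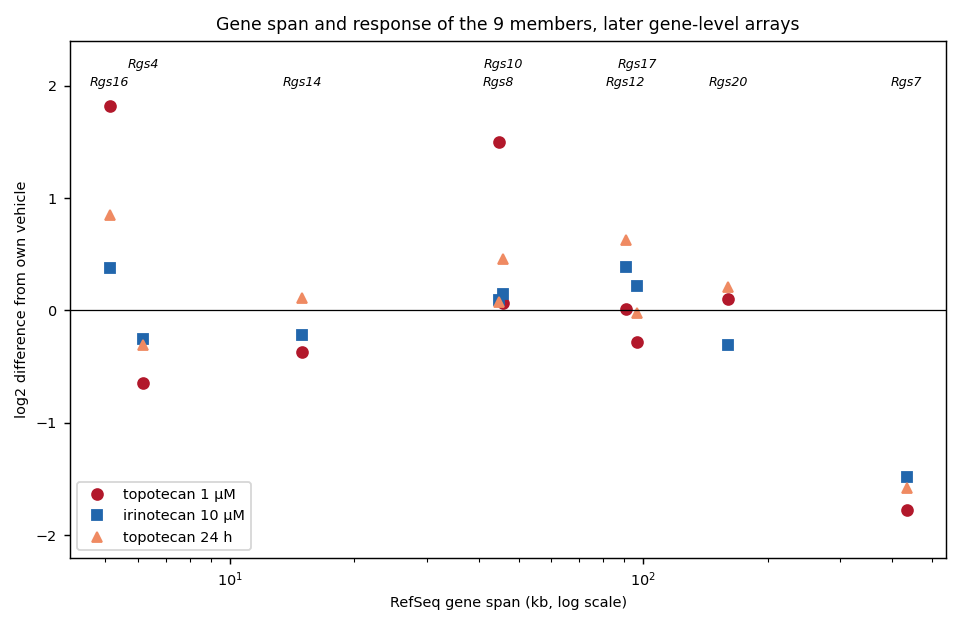
RefSeq gene span (kb, log axis) of the 9 genes against the log2 difference from vehicle with topotecan at 1 µM (circles), irinotecan at 10 µM (squares) and topotecan for 24 h (triangles). Rgs7, at 433.79 kb, lies between -1.78 and -1.48 in all 3, and the genes from 5.12 to 160.73 kb lie on both sides of 0; the circles and squares are values that chose the genes.

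At 300 nM on the 3′ arrays, Rgs7 fell and Rgs17 rose, and Rgs4, Rgs8 and Rgs16 did not pass the test. The differences named in the choice of genes are not those of this comparison. The genes were, however, chosen with earlier results of these data known. In limma with Benjamini-Hochberg adjustment, 4.31% of 20975 probe sets were called at an adjusted p under 0.05, of which 232 were higher and 673 lower. Of the 14 member probe sets 3 were called, 2 higher and 1 lower, or 21.4%, from 2 of 9 genes. The median difference was 0.33 over the member probe sets and 0.05 over all. Rgs7 was at 10.11, 9.83 and 9.55 with topotecan and at 10.85, 11.21 and 11.27 with vehicle. The groups were wide apart. The difference was -1.28 ± 0.18 (SE, n = 3), with a 95% interval from -1.71 to -0.86 and a limma adjusted p of 0.0127. That call was lost without treated replicate 2 (adjusted p = 0.0615) or vehicle replicate 2 (adjusted p = 0.0668). Without the replicate 3 arrays of both groups the difference was -1.07 (adjusted p = 0.047).

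Rgs17, of the RZ group, was read by 2 probe sets. The first was at 10.41, 10.59 and 10.51 with topotecan and 9.79, 9.96 and 10.05 with vehicle. The second was at 11.18, 11.35 and 11.24 and at 10.53, 10.70 and 10.81. On both, all treated arrays were above all vehicle arrays. The differences were 0.57 ± 0.12 and 0.58 ± 0.12 (SE, n = 3), with limma adjusted p of 0.0443 and 0.0441. Each call was lost when any of the 6 arrays was left out, with differences from 0.50 to 0.64 and adjusted p from 0.0521 to 0.193, and the first also after quantile normalization (adjusted p = 0.0513). Without the replicate 3 arrays of both groups they were 0.62 and 0.65 (adjusted p = 0.0777 and 0.0698). Rgs20, of the same group, had differences of -0.59 and -0.64 on its 2 tested probe sets with adjusted p of 0.14 and 0.139, so the RZ genes had opposite signs here but only Rgs17 passed.

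Among the R4 members at 300 nM, Rgs8 was at 8.90, 9.15 and 8.80 with topotecan and at 8.25, 8.53 and 9.01 with vehicle. The third vehicle array lay within the treated range. The difference was 0.36, with a 95% interval from -0.12 to 0.83 and a limma adjusted p of 0.381. Rgs16 was the most spread: its 2 probe sets gave 8.26, 8.76 and 9.80 and 9.37, 9.60 and 10.32 with topotecan, against 9.00, 8.58 and 7.65 and 9.89, 9.74 and 8.70 with vehicle. Replicate 3 had the highest treated and the lowest vehicle level on both. The differences were 0.53, with an interval from -0.53 to 1.59, and 0.32, from -0.52 to 1.16, with adjusted p of 0.555 and 0.659. Without the replicate 3 arrays of both groups they turned to -0.28 and -0.33 (adjusted p = 0.519 and 0.245), and that of Rgs8 was 0.64 (adjusted p = 0.1). Rgs4 had differences of 0.06, 0.23 and 0.37 on 3 probe sets with adjusted p from 0.541 to 0.903. These intervals hold both 0 and, for Rgs16, a difference of more than 1. The R12 genes differed by 0.44 (Rgs10, adjusted p = 0.164), 0.33 (Rgs12, adjusted p = 0.313) and -0.01 (Rgs14).

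With ICRF-193 Rgs4, Rgs8, Rgs16 and Rgs17 had a called rise, and Rgs7 and Rgs10 fell. With limma 13.9% of probe sets were called (1227 higher, 1680 lower). Of the 14 member probe sets 9 were called, 7 higher and 2 lower, or 64.3%, from 6 of 9 genes, with a median difference of 0.30 against 0.00085 over all probe sets. The arrays of this experiment were close to one another, with 0.0143 to 0.582% of probe sets past 1.5-fold between replicates. Rgs8 was at 7.97, 8.03 and 8.02 with ICRF-193 and at 7.12, 7.23 and 7.38 with vehicle. Its groups were separated by more than either group's own spread. The difference was 0.76 ± 0.07 (SE, n = 3), with an interval from 0.61 to 0.92 and an adjusted p of 0.000705, and the call held with each array left out.

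Rgs4 rose with ICRF-193 on all 3 of its probe sets. The brightest was at 11.74, 11.74 and 11.62 against 11.31, 11.38 and 11.17, a difference of 0.41 with a limma adjusted p of 0.0069. The others differed by 0.47 (adjusted p = 0.00325) and 0.44 (adjusted p = 0.0323). The last of these, the dimmest, lost its call without 5 of the 6 arrays, with adjusted p from 0.0588 to 0.109, and without a filter on dim probe sets (adjusted p = 0.067). Rgs16 was at 8.76, 8.73 and 8.91 against 8.38, 8.46 and 8.64 on 1 probe set and at 7.83, 7.95 and 7.97 against 7.37, 7.49 and 7.81 on the other. The treated arrays were above all vehicle arrays on both, the second by a narrow margin. The first differed by 0.31 with a limma adjusted p of 0.0379, and that call was lost without 5 of the 6 arrays (adjusted p from 0.0726 to 0.122) and without a filter on dim probe sets (adjusted p = 0.0785). The second differed by 0.36 with an adjusted p of 0.0638, which became 0.0182 with the replicate number as a block, the numbers pairing the arrays in this experiment, 0.0443 with an intensity trend and 0.0039 without vehicle replicate 3.

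Outside the R4 group, Rgs17 rose with ICRF-193 by 0.29 and 0.32 (limma adjusted p = 0.0106 and 0.00349). Rgs10, the small R12 protein best known from microglia, was at 8.53, 8.50 and 8.43 against 8.81, 8.78 and 8.81. It was lower on every treated array. It fell by 0.31 ± 0.04 (SE, n = 3; limma adjusted p = 0.00405). Rgs7 was at 10.40, 10.37 and 10.27 against 10.78, 10.67 and 10.57, again with no overlap. It fell by 0.33 ± 0.06 (SE, n = 3; limma adjusted p = 0.0159), a call lost without treated replicate 2 or 3 or vehicle replicate 2 (adjusted p from 0.0511 to 0.0615). Rgs12 differed by 0.09 (adjusted p = 0.241), Rgs14 by -0.0037 and Rgs20 by 0.07 and -0.06.

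**Figure D3:**
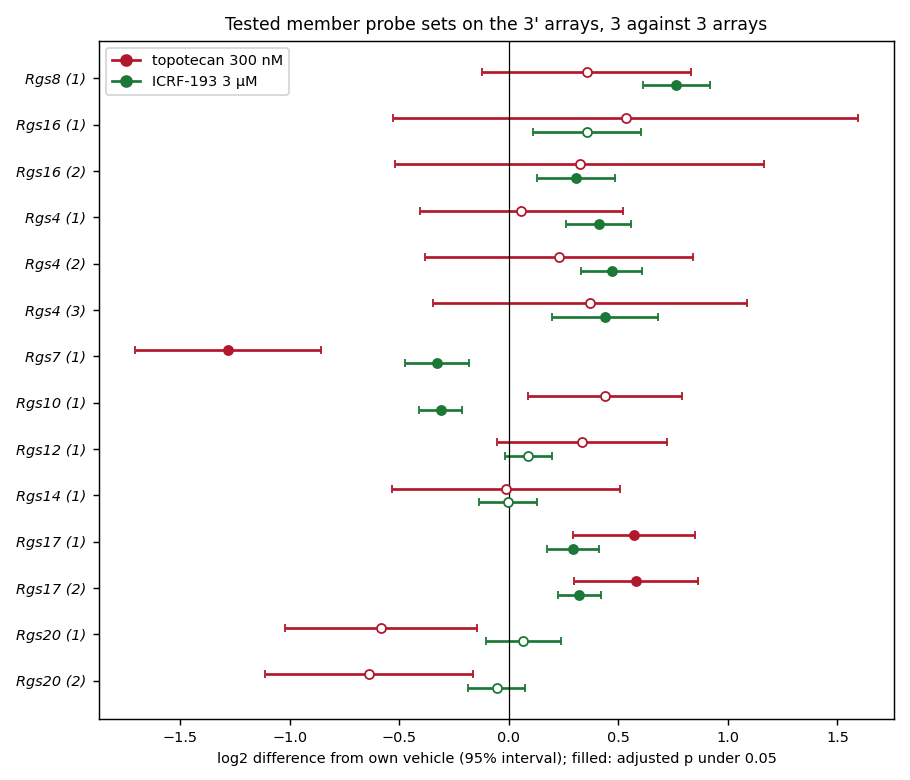
Log2 difference from own vehicle of the 14 tested member probe sets on the 3′ arrays, with 95% intervals, for ICRF-193 (3 µM) and for topotecan (300 nM), 3 against 3 arrays each; filled circles have a limma adjusted p under 0.05 and numbers in brackets count the probe sets of a gene. Rgs7 lies at -1.28 with topotecan and -0.33 with ICRF-193, Rgs8 at 0.36 and 0.76, and the intervals with topotecan are the wider.

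The difference between the topotecan 300 nM effect and the ICRF-193 effect was tested as a contrast of the 4 groups, in which each effect has its own vehicle. The fit shares a spread over the 4 groups, though the topotecan experiment varied more. The SE of Rgs10 was 0.15 in the fit of 300 nM and 0.04 in that of ICRF-193. It was called for 2 member probe sets of 14, 1 higher and 1 lower, where 2.92% of all probe sets were called. The median difference was -0.04 over the member probe sets and 0.05 over all. For Rgs7 the topotecan effect was lower by 0.96 on the log2 scale (-0.96 ± 0.20 (SE), interval from -1.40 to -0.51, limma adjusted p = 0.0309). For Rgs10 it was 0.75 ± 0.15 (SE) above the ICRF-193 effect (interval from 0.41 to 1.09, limma adjusted p = 0.0286). Both calls were lost when any ICRF-193 or ICRF-193 vehicle array or topotecan replicate 2 was left out, and that of Rgs7 also without topotecan vehicle replicate 2, with adjusted p from 0.0636 to 0.0965. With the replicate number as a block, which the arrays bear out for ICRF-193 and not for 300 nM, that of Rgs7 was lost (adjusted p = 0.141) and that of Rgs10 was not (adjusted p = 0.0471). Without the replicate 3 arrays of both topotecan groups they were -0.74 (adjusted p = 0.027) and 0.80 (adjusted p = 0.0172). For Rgs8 the difference was -0.41, with an interval from -0.92 to 0.10 and an adjusted p of 0.422, so a rise of Rgs8 that is larger with ICRF-193 was not shown. The values were 0.18 and 0.02 for Rgs16, of which the second turned to -0.63 (adjusted p = 0.0268) without the replicate 3 arrays of both topotecan groups, and -0.35, -0.24 and -0.07 for Rgs4. Those for Rgs17 were 0.28 and 0.26 (adjusted p = 0.263 and 0.295), and those for Rgs20 -0.58 and -0.65 (adjusted p = 0.215 and 0.145). The first of these was called without topotecan vehicle replicate 3 (adjusted p = 0.0444) and without the replicate 3 arrays of both groups (adjusted p = 0.0394), and Rgs12, at 0.24, without topotecan vehicle replicate 1 (0.41, adjusted p = 0.0465).

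Cell type markers moved with the drugs, and those of astrocytes were lower in both experiments on the 3′ arrays. The log2 of the summed intensity of the list was 14.30 to 14.66 with topotecan at 300 nM and 15.12 to 15.40 with its vehicle, with 4 of 7 tested markers called lower. It was 14.47 to 14.63 with ICRF-193 and 14.91 to 15.08 with its vehicle, with 6 of 7 called lower. With ICRF-193 excitatory neuron markers were at 13.6495 to 13.7153 against 13.5514 to 13.6462, with 4 of 7 called higher and 1 lower. Inhibitory neuron markers were at 12.30 to 12.40 against 12.19 to 12.23, with 3 of 8 called higher and none lower. Of the neuron markers 2 of 8 were called higher and none lower, where 13.9% of all probe sets were called. The summed level of 8 microglia markers was 10.62 to 10.74 with ICRF-193 and 10.52 to 10.84 with its vehicle, with none of 6 called, beside the fall of Rgs10. At 1 µM the astrocyte level was 10.72 to 10.90 against 11.78 to 11.94, with 6 of 7 past 1.5-fold lower. Inhibitory neuron markers were at 10.19 to 10.77 against 11.45 to 11.96, with 2 of 7 past 1.5-fold lower. Fibroblast and mural markers, at 11.73 to 12.31 against 12.32 to 12.78, and proliferating cell markers, at 9.36 to 9.71 against 9.77 to 10.42, were also lower at 1 µM without overlap, while microglia markers overlapped. With irinotecan the inhibitory neuron level was 10.49 to 10.84 against 11.34 to 11.45, with 2 of 7 past 1.5-fold lower, and the astrocyte level 10.78 to 10.89 against 10.95 to 11.20, with 4 of 7. The part of these shifts in the RGS values was not tested, and in such bulk cultures fewer cells of a type and less RNA per cell cannot be told apart.

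In the dose series, Rgs8 rose and Rgs7 fell with the rank of the dose. The slope per dose step, over 6 steps and 10 arrays, was called by limma for 2 of 7 member probe sets, 1 higher and 1 lower, where 3.49% of all probe sets were called. The median slope was 0.03 over the members and 0.0032 over all. Rgs7 was at 10.44, 10.51 and 10.73 with vehicle, and at 10.69, 10.57, 10.47, 10.29, 10.29, 10.01 and 9.38 from 3 to 1000 nM. Each dose above 3 nM was lower than the dose before it or equal to it. The slope was -0.15 ± 0.03 (SE; limma adjusted p = 0.0419). Rgs8 was at 7.58, 7.64 and 8.15 with vehicle and at 8.29, 8.27, 8.38, 8.27, 8.30, 8.52 and 9.10 from 3 to 1000 nM. The levels from 3 to 300 nM were close to one another and to the third vehicle array. The slope was 0.16 ± 0.03 (SE, limma adjusted p = 0.0313). Its call was lost without the array at 1000 nM, and Rgs8 was chosen as high at that dose. The slope is therefore not separate support for the rise at 1 µM.

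The 1000 nM array and the first and second vehicle arrays form a set apart from the other 7 arrays by their values, and cell type markers differ between the sets. Proliferating cell markers summed to 12.14 and 12.19 on the first and second vehicle array and 10.70 at 1000 nM, but to 8.92 on the third vehicle array and 8.76 to 8.94 from 3 to 500 nM. Astrocyte markers were at 13.92, 13.96 and 12.97 on the first 3 of these arrays and at 12.07 on the third vehicle array. Fibroblast and mural markers were at 13.42, 13.40 and 13.15, and at 12.24. The part of this in the dose slopes was not tested. Against the vehicle arrays of its own set, 1000 nM gave differences of 1.49 for Rgs8, 1.56 for Rgs16, -1.09 for Rgs7 and -0.13 for Rgs4. Against the third vehicle array, 500 nM gave 0.37 for Rgs8, 0.11 for Rgs16, -0.72 for Rgs7, 0.48 for Rgs17 and -0.47 for Rgs20. Rgs7 was thus well below vehicle at 500 nM in the larger set, where Rgs16 was near it. Without the 3 arrays of the smaller set the limma slope of Rgs7 was -0.14 (adjusted p = 0.00245), that of Rgs8 0.05 (adjusted p = 0.128), that of Rgs20 -0.09 (adjusted p = 0.0158) and that of Rgs17 0.08 (adjusted p = 0.031). That of Rgs16 turned from 0.13 (adjusted p = 0.138) to -0.0097 (adjusted p = 0.824). With the array set as a block the slopes of Rgs8 (adjusted p = 0.00662), Rgs7 (adjusted p = 2e-05), Rgs20 (adjusted p = 0.0461) and Rgs16 (adjusted p = 0.0414) were called. These slopes take in the 1000 nM array, the dose at which Rgs8 and Rgs16 were chosen as high. For those genes they are therefore not separate support for the rise at 1000 nM.

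The calls of the dose series were near the threshold. That of Rgs8 was lost without the array at 150, 500 or 1000 nM or without the first or second vehicle array (limma adjusted p from 0.0567 to 0.0862). That of Rgs7 was lost without any single array other than the first vehicle array (adjusted p from 0.0557 to 0.1). On a log10 dose scale both were lost, with adjusted p of 0.0666 for Rgs8 and 0.13 for Rgs7, and without a filter on dim probe sets that of Rgs7 (adjusted p = 0.0651). The remaining members had slopes of -0.05 (Rgs20, adjusted p = 0.2), 0.03 (Rgs17), 0.03 (Rgs12) and 0.01 (Rgs4). Rgs4 was at 9.85, 9.94 and 10.94 with vehicle, 10.70 to 10.84 from 3 to 500 nM and 9.77 at 1000 nM, so that its levels followed the array sets.

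**Figure D4:**
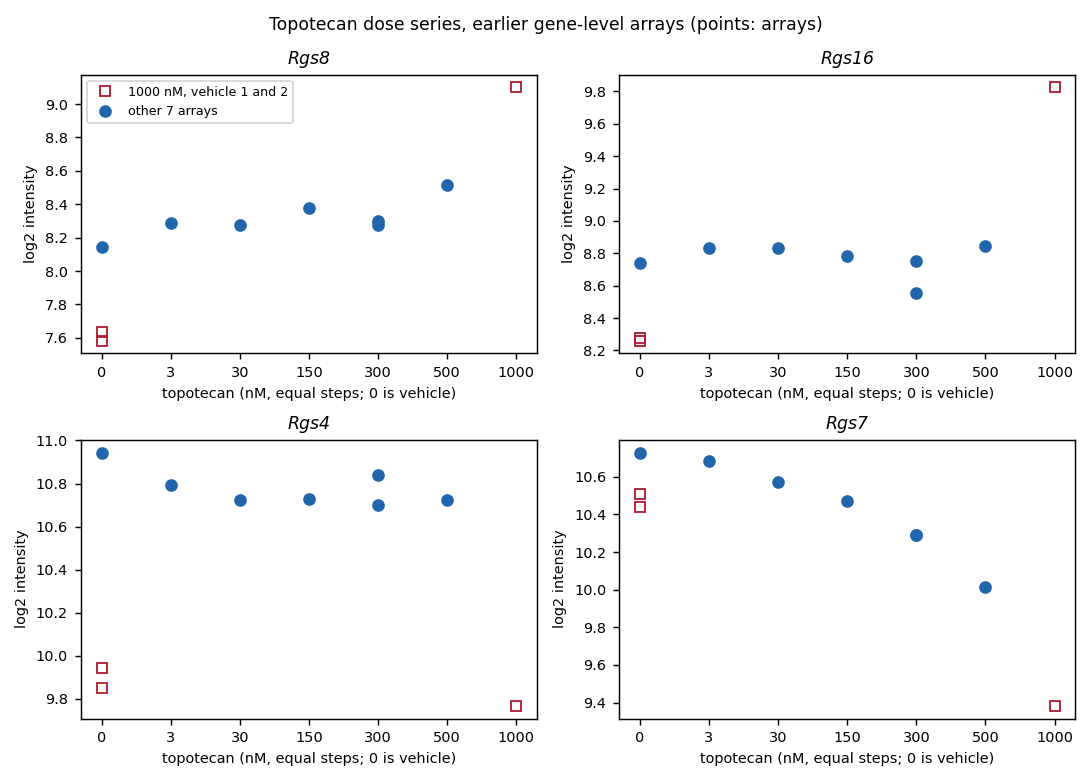
Level of Rgs8, Rgs16, Rgs4 and Rgs7 (log2 intensity) on each of the 10 arrays of the topotecan dose series, with doses in nM at equal steps and vehicle at 0; open squares are the 1000 nM array and vehicle 1 and 2, which stand apart, and filled circles the other 7 arrays. Rgs7 goes from 10.69 at 3 nM to 10.01 at 500 nM among the filled circles, and Rgs16 stays between 8.56 and 8.85 there.

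The shRNA experiment asked for the effect of less Top1 or Top2b without a drug. Top1 itself was at 7.62, 8.39 and 8.29 with Top1 shRNA and at 8.98, 8.46 and 8.55 with control shRNA, for replicates 1, 2 and 3. It was below the control of the same number each time, by very little in replicate 2. The difference was -0.57 ± 0.26 (SE, n = 3; limma adjusted p = 0.203). Top2b was at 8.62, 6.87 and 6.80 with Top2b shRNA and at 9.30, 8.39 and 8.17 with control shRNA. It was lower with every number, and most in replicates 2 and 3. The difference was -1.19 ± 0.48 (SE, n = 3, limma adjusted p = 0.235), so neither targeted gene passed the test with replicate 1, which stood apart, in the fit. By replicate, Top2b differed by -0.68, -1.52 and -1.37 with its shRNA, and Top1 by -1.36, -0.07 and -0.27 with its own. No test of them without replicate 1 is given here.

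With Top1 shRNA, Rgs16 rose and Rgs17 fell, and Rgs8 was near its control. Limma called 2 of 9 members, 1 higher and 1 lower, where 10.4% of all probe sets were called (762 higher, 704 lower). The median difference was -0.63 over the members and -0.02 over all. Rgs16 was at 8.72, 9.14 and 9.09 with Top1 shRNA, at 7.41, 8.16 and 7.82 with Top2b shRNA and at 7.85, 7.22 and 7.47 with control shRNA. The Top1 shRNA arrays were above all the others. The difference from control was 1.47 ± 0.27 (SE, n = 3), with an interval from 0.88 to 2.06 and an adjusted p of 0.01. By replicate it was 0.87, 1.92 and 1.62. The call was lost without control replicate 2 (1.32, adjusted p = 0.0507) or 3 (1.45, adjusted p = 0.0502), and without replicate 1 of all groups the difference was 1.77 (adjusted p = 0.000523). That omission removes the replicate in which Top1 differed most (-1.36) and keeps those where it differed by -0.07 and -0.27. The same holds for the other Top1 shRNA values given without replicate 1.

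Rgs17 was at 6.56, 5.89 and 6.55 with Top1 shRNA, at 6.99, 7.15 and 7.26 with Top2b shRNA and at 7.60, 7.19 and 7.04 with control shRNA. It was lower on each Top1 shRNA array than on any other. The difference from control was -0.95 ± 0.26 (SE, n = 3; limma adjusted p = 0.043). The call was lost without Top1 shRNA replicate 2 or 3, Top2b shRNA replicate 2 or 3, or any control array (differences from -1.07 to -0.72, adjusted p from 0.068 to 0.156) and without a filter on dim probe sets (adjusted p = 0.11). Without replicate 1 of all groups it was -0.90 (adjusted p = 0.0162). Its sign was opposite to that with topotecan at 300 nM and with ICRF-193, which were read on another array type and not tested against this value. On the array type of the shRNA groups, Rgs17 was at -0.28 with topotecan at 1 µM, 0.21 with irinotecan and -0.03 after 24 h.

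Rgs8 was at 6.32, 6.14 and 6.16 with Top1 shRNA, at 6.28, 5.73 and 5.50 with Top2b shRNA and at 6.04, 6.33 and 6.65 with control shRNA, overlapping throughout. The difference with Top1 shRNA was -0.14 (limma adjusted p = 0.816). Rgs4 was at 8.45, 8.26 and 9.27, at 7.42, 9.28 and 9.33 and at 9.79, 9.57 and 9.53. All shRNA arrays against the topoisomerases were below the controls. Its difference was -0.97 with Top1 shRNA (adjusted p = 0.232) and -0.95 with Top2b shRNA (adjusted p = 0.36); without Top2b shRNA replicate 1 the former had an adjusted p of 0.0456. Rgs7 was at 9.21, 7.75 and 9.09, at 8.52, 9.06 and 9.29 and at 9.57, 9.70 and 9.62. It too was below control on all 6 arrays, with differences of -0.95 (adjusted p = 0.134) and -0.68 (adjusted p = 0.416) that did not pass. Rgs10 differed by -0.63 and -0.95 (adjusted p = 0.215 and 0.129) and Rgs14 by -0.68 and -0.64 (adjusted p = 0.152 and 0.281). Without control replicate 1 the value of Rgs14 with Top1 shRNA was -0.99 (adjusted p = 0.0232). Rgs20 differed by -0.43 and -0.03, and Rgs12 by 0.10 and -0.07.

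With Top2b shRNA no member of 9 was called by limma, where 2.66% of all probe sets were; 2 members, Rgs10 and Rgs14, had an unadjusted p under 0.05. The median difference was -0.51 over the members and -0.04 over all. Rgs16 differed by 0.28 (adjusted p = 0.678), and by replicate by -0.45, 0.93 and 0.35. With the replicate number as a block the count of all probe sets called rose from 375 to 1327, still with no member. Without replicate 1 of all groups 4 members were called: Rgs8 at -0.88 (adjusted p = 0.0115), Rgs10 at -1.20 (adjusted p = 0.0264), Rgs14 at -0.87 (adjusted p = 0.0118) and Rgs16 at 0.64 (adjusted p = 0.0369). The same omission gave 4 calls with Top1 shRNA, where Rgs7 at -1.24 (adjusted p = 0.038) and Rgs14 at -0.93 (adjusted p = 0.00422) joined Rgs16 and Rgs17.

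Top1 shRNA was also set against Top2b shRNA in the same fit. Limma called no member and 0% of all probe sets, 0 of 14112; 820 probe sets and 2 members had an unadjusted p under 0.05. Rgs16 was higher with Top1 shRNA by 1.19, with an interval from 0.60 to 1.79 (unadjusted p = 0.00114, limma adjusted p = 0.748). Rgs17 differed by -0.80 (adjusted p = 0.78). The median difference was -0.02 over the members and 0.01 over all. Without replicate 1 of all groups these became 1.13 (adjusted p = 0.0128) and -0.99 (adjusted p = 0.0332).

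**Figure D5:**
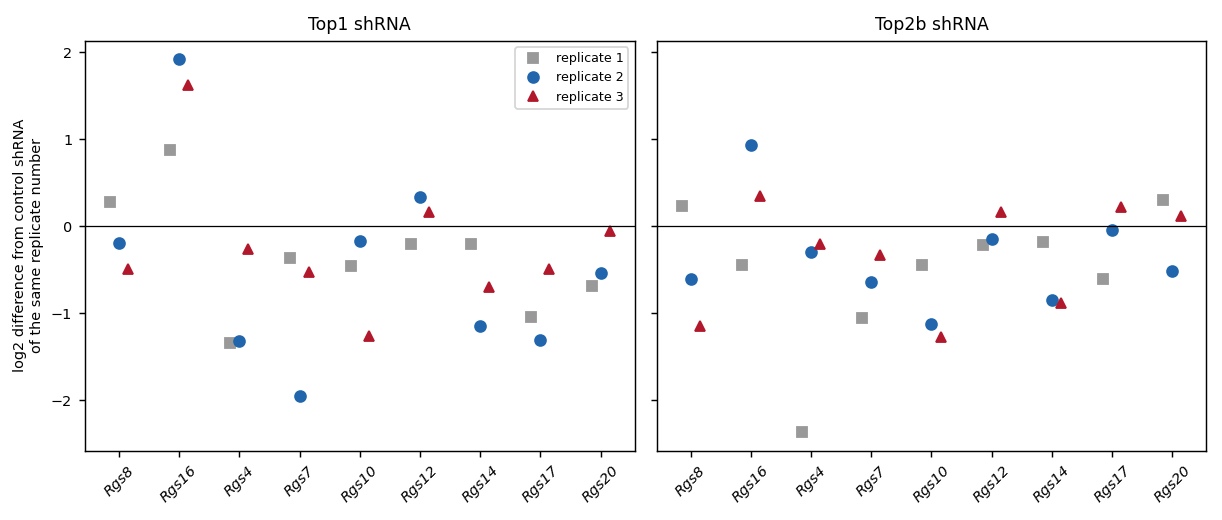
Log2 difference of each member from the control shRNA array of the same replicate number, for Top1 shRNA and Top2b shRNA; symbols mark the 3 replicates and the line is no difference. Rgs16 with Top1 shRNA lies at 0.87, 1.92 and 1.62, all above 0, and Rgs17 at -1.04, -1.31 and -0.49, all below it.

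Cell type markers moved with the shRNA groups. The summed level of 8 fibroblast and mural cell genes was 12.56 to 12.75 with Top1 shRNA, 12.23 to 12.58 with Top2b shRNA and 9.83 to 11.41 with control shRNA, and 6 of 7 tested markers were called higher with Top1 shRNA and 1 with Top2b shRNA. The summed level of the 8 neuron markers was 13.05 to 13.54, 13.27 to 13.81 and 13.98 to 14.03, and 4 of 7 excitatory neuron markers were called lower with Top1 shRNA. Of the proliferating cell markers the summed level was 8.94 to 10.36, 8.31 to 10.64 and 8.16 to 8.53. The part of this in the values of Rgs16, Rgs17, Rgs4 and Rgs7 was not tested.

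DRB, hydrogen peroxide and paraquat had 1 array each, and their values have no replicate check. With DRB the median of all probe sets was -0.32 and 49.4% were past 1.5-fold, against 4 of 9 members (1 higher, 3 lower). Rgs8 was at 5.46 with DRB and 6.83 with vehicle, a difference of -1.37, and Rgs14 was at 4.84 and 6.20, a difference of -1.35. The level of Rgs14 with DRB was below 4.96, the limit for the mean of a tested probe set. Rgs20 differed by -0.93. Rgs4 was higher, at 10.72 against 10.03. Rgs16 differed by -0.31 and Rgs7 by -0.07, and after a new quantile normalization by 0.11 and 0.08. Of the neighbours on chromosome 1, Rgs8 was therefore below the median of all probe sets with DRB and Rgs16 close to it.

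With hydrogen peroxide 2 of 9 members were past 1.5-fold against the mean of the 2 vehicle arrays, both higher, where 12.9% of all probe sets were; they were Rgs7 at 0.74 and Rgs4 at 0.72. With paraquat 4 of 9 were past it, 3 higher and 1 lower, where 20.9% of all probe sets were and the median was 0.11. These were Rgs14 at 0.79, Rgs10 at 0.64, Rgs17 at 0.59 and Rgs16 at -0.60, with Rgs7 just inside at 0.54. The vehicle arrays decide several of these values, since Rgs16 was at 9.64 on the first and 7.75 on the second, and Rgs4 at 8.55 and 10.16. Against the first and second vehicle array in turn, hydrogen peroxide gave 1.52 and -0.08 for Rgs4, 1.30 and 0.19 for Rgs7 and -0.74 and 1.15 for Rgs16. Paraquat gave -1.54 and 0.35 for Rgs16, 1.31 and -0.29 for Rgs4, 1.09 and -0.02 for Rgs7 and 1.11 and 0.07 for Rgs17. It gave 0.98 and 0.60 for Rgs14 and 0.74 and 0.53 for Rgs10. With paraquat the sign of Rgs16, Rgs4 and Rgs7 turned with the vehicle array and Rgs17 was close to the second one, while Rgs14 alone of the 9 was past 1.5-fold and of 1 sign against both. Its 0.60 was just past 0.585, the log2 of 1.5-fold, and Rgs14 was dim on this array type.

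Cell type markers moved with these arrays as well. The summed levels on the first and second oxidant vehicle array were 10.62 and 12.12 for excitatory neuron markers, 13.66 and 12.10 for fibroblast and mural markers and 11.03 and 9.57 for proliferating cell markers. With hydrogen peroxide 7 of 7 proliferating cell and 6 of 7 fibroblast and mural markers were past 1.5-fold lower than the vehicle mean, and with paraquat 6 and 5 of 7. With DRB the astrocyte level was 9.53 against 12.04, with 7 of 7 markers past 1.5-fold lower. The part of these shifts in the RGS values was not tested.

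The other genes of G protein signalling were taken from lists by role, each gene read by its brightest probe set. Beside their counts stand the shares of all probe sets called, which were 4.31% at 300 nM, 13.9% with ICRF-193, 3.49% for the dose trend, 10.4% with Top1 shRNA and 2.66% with Top2b shRNA. Of the other RGS genes, Rgs6, like Rgs7 of the R7 group and 545.51 kb long, fell in 3 tests: its difference was -1.5 with topotecan at 300 nM (limma adjusted p = 0.0214) and -0.54 with ICRF-193 (adjusted p = 0.000436), and its slope was -0.21 per dose step (adjusted p = 0.0465). The first of these was -1.24 without the replicate 3 arrays of both 300 nM groups, and its call was lost (adjusted p = 0.0604), and without the 1000 nM array and vehicle 1 and 2 the slope was -0.09 (adjusted p = 0.115). It was at -1.41 with topotecan at 1 µM, -1.59 with irinotecan, -1.55 after 24 h and -0.05 after washout. The shorter Rgs3 (143.18 kb), an R4 gene, rose with topotecan at 300 nM by 0.49 (adjusted p = 0.0438), a call also lost without the replicate 3 arrays (0.48, adjusted p = 0.0856). These were the calls among 11 other RGS genes tested at 300 nM, where the list's median was -0.03 against 0.06 over all genes. With ICRF-193 3 of the 11 rose and 2 fell, where 13.9% of all probe sets were called. Rgs5, the neighbour of Rgs4 and a gene of mural cells, rose by 0.95 (adjusted p = 0.003), Rgs2 by 0.29 (adjusted p = 0.00713) and Rgs9 by 0.25 (adjusted p = 0.0275). With either shRNA none of 13 other RGS genes was called.

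Among the RGS binding partners, none of 6 tested was called at 300 nM. Gnb5, the beta subunit that R7 proteins need, had a difference of 0.40 there (limma adjusted p = 0.102) and was called in no tested comparison. Gpr158, the orphan receptor that recruits Rgs7, fell with both shRNAs, with differences of -1.78 with Top1 shRNA (adjusted p = 0.00356) and -1.97 with Top2b shRNA (adjusted p = 0.0191), and was at -1.46 with topotecan at 1 µM, -1.47 with irinotecan, -1.28 after 24 h and -0.11 after washout. Of the alpha subunits, which RGS proteins act on, Gnao1 fell with topotecan at 300 nM, to a difference of -0.82 (adjusted p = 0.0105; -0.74 and 0.0399 without the replicate 3 arrays), as the only one of 11 called there, and none of 11 was called with ICRF-193. With Top1 shRNA 1 of 11 rose and 1 fell, with differences of 0.91 for Gnai2 and -1.51 for Gnal. Of 11 beta and gamma subunits none was called at 300 nM and 2 rose with ICRF-193, Gng11 by 0.30 and Gng3 by 0.21; with Top1 shRNA 1 of 10 rose and 3 fell.

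Of the effectors, Plcb1, the phospholipase C downstream of Gq, fell in 3 tests, with differences of -1.5 with topotecan at 300 nM (limma adjusted p = 0.00197), -0.53 with ICRF-193 (adjusted p = 0.00125) and -1.38 with Top1 shRNA, and was at -2.13 with topotecan at 1 µM. It was the only effector of 18 called at 300 nM, where the list's median was -0.31 against 0.06 over all genes. Its difference at 300 nM was -1.40 (adjusted p = 0.0166) without the replicate 3 arrays. At 1 µM 10 of 17 effectors were past 1.5-fold, all lower, where 10.7% of all probe sets were past it, 487 higher and 1022 lower. Of the Gi and Gq coupled receptors, 5 of 21 fell at 300 nM and none rose, where 4.31% of all probe sets were called. Among them were the metabotropic glutamate receptors Grm7 at -3.47 (adjusted p = 0.00256) and Grm5 at -1.59 (adjusted p = 0.0142). They were -3.0 (adjusted p = 0.0167) and -1.24 (adjusted p = 0.0329) without the replicate 3 arrays, where the calls of S1pr1 and Grm3, also among the 5, were lost (adjusted p = 0.0947 and 0.111). With ICRF-193 4 of 21 rose and 7 fell, where 13.9% of all probe sets were called, among them the serotonin receptor Htr1a, which rose by 0.77 (adjusted p = 7.81e-05), and Grm7, with a difference of -1.0 (adjusted p = 0.000341). With Top1 shRNA 11 of 32 fell and 1 rose, with a median of -0.83 against -0.02 over all genes, and with Top2b shRNA 3 of 32 fell; the shares over all probe sets were 10.4% and 2.66%. Of the pathway genes called, 25 of 25 with Top1 shRNA and 6 of 6 with Top2b shRNA were called with the same sign without replicate 1 of all groups. On the Top1 shRNA arrays then left, Top1 itself differed from control by only -0.07 and -0.27.

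Patterns like those of the R4 members were sought over the 34 later arrays, each taken as its difference from the mean of its own control arrays. These are descriptions without a test, and arrays of 1 experiment share their controls. For Rgs8 the highest Pearson r was with Bex3 (0.87), followed by S100a10, Lurap1l, Minar2 and Tpm3. For Rgs16 it was with the histone deacetylase gene Hdac7 (0.94), followed by Tceal9, the endothelin gene Edn1 (0.91) and Slc35f5. For Rgs4 it was with Gap43 (0.92), the growth cone protein, followed by Atp1b1, Cacnb4, Atp2b1 and Acsl4. Those arrays include the topotecan 1 µM and irinotecan arrays whose values chose the genes, so nothing is read from these correlations about the members.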

How the data were processed

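Intensity was measured on Affymetrix arrays. The authors' intensity values came from RMA in Affymetrix Expression Console, per the submitters' processing notes; versions, and which arrays were normalized together, are not given in the sources used here. The deposited values are intensity per probe set on a linear scale. The planned tests assumed log2 values, so log2 of each deposited intensity was taken here. Groups follow the sample titles, with which the treatment labels match. The free-text descriptions contradict them: they name ICRF-193 for the 500 nM, control shRNA and DRB arrays, irinotecan for the ICRF-193, hydrogen peroxide and oxidant vehicle arrays, and a topotecan dose response for the ICRF-193 vehicle, irinotecan, paraquat and topoisomerase shRNA arrays, among others. The members and lists were chosen with earlier results of these data known. Each comparison was fitted across all probe sets with 1 gene symbol above the 40th percentile of mean log2 value, in R 4.3.3 with limma 3.58.1 (lmFit, eBayes, 2-sided, Benjamini-Hochberg, threshold 0.05), on the arrays of its experiment. The script was tested on simulated data. Since nothing says that replicates were separate cultures, p-values measure the spread between arrays only, and the number of arrays limits the precision. Comparisons without a test use a fold of 1.5. List genes were read by their brightest probe set; up to 4 per list and comparison with the largest called differences could be named. Replicate numbers deviated together in the ICRF-193 experiment (r = 0.315, 0.175 and 0.292), taken as pairing from the data, and not at 300 nM (r = -0.03, -0.16 and -0.44). Between Top2b and control shRNA r was 0.469, 0.401 and 0.361, and between Top1 and control shRNA 0.331, 0.07 and 0.297. Top2b shRNA replicate 2 had a higher r with a control array of another number. Because replicate 1 of each shRNA group stood apart, these values cannot decide whether the shRNA arrays were paired. Alternatives were the brightest probe set per gene, no filter, quantile normalization, an intensity trend, the replicate number or array set as a block, a log10 dose scale, and leaving out arrays. The block by array set and leaving out replicate 3 of both 300 nM groups were added after seeing the data. Proteins were not used here.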

Additional observations from a re-analysis of the deposited data

Results flagged for a closer look

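In 18 groups of 6 arrays (9 members with topotecan at 1 µM and with its vehicle) an array far from the other 5 was looked for with Dixon's criterion, which chance meets in about 1 in 20 groups. It was met in 5 groups. The members were read on the same arrays, so the groups are not independent, and nothing is read from that count. Rgs8 was at 7.49 on topotecan 1 µM replicate 4, the lowest of that group, and at 5.80 on vehicle replicate 5, the lowest of its group. Rgs7 was at 9.35 and Rgs17 at 6.73 on vehicle replicate 4, again the lowest. That array differed past 1.5-fold from the other vehicle arrays in 5.27 to 9.45% of all probe sets. Rgs10 was at 7.96 on topotecan 1 µM replicate 5, the highest of its group.

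By a limma contrast of the 4 groups, ICRF-193 and topotecan at 300 nM were called different in their effect on Rgs10 and Rgs7. The topotecan effect minus the ICRF-193 effect was 0.75 for Rgs10 and -0.96 for Rgs7. Both calls were lost when any ICRF-193 or ICRF-193 vehicle array was left out.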

How the results depend on the processing

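The counts of probe sets called moved most with the array sets and the replicate block. With the replicate block, members called went from 3 to 0 for topotecan at 300 nM and from 2 to 1 for its difference from ICRF-193, and all probe sets called to 1, 131, 3200 and 1327 for 300 nM, that difference, Top1 shRNA and Top2b shRNA; it also gave Rgs7 an adjusted p of 0.109 at 300 nM. Without replicate 1 of all shRNA groups, all probe sets called were 6152, 3079 and 1879 for Top1 shRNA, Top2b shRNA and their difference, with 4, 4 and 2 members. Without a filter on dim probe sets the counts were 1741 for ICRF-193, 291 for the dose trend (1 member), 590 for Top1 shRNA (1 member) and 0 for Top2b shRNA. With the brightest probe set per gene they were 508 at 300 nM and 395 for the difference, partly since fewer probe sets were tested, and after quantile normalization 568 for Top2b shRNA, with 2 members past 1.5-fold for paraquat. For the dose trend they were 243 on the log10 scale (0 members), 1210 without 1000 nM and vehicle 1 and 2, and 3087 with the array set as a block (4 members); without those arrays the slope of Rgs16 was -0.0097, of opposite sign. Without the replicate 3 arrays of both 300 nM groups, added after seeing the data, 535 probe sets and 1 member were called at 300 nM and 2334 and 4 for the difference from ICRF-193, in which 1 probe set of Rgs16 turned to -0.63; with single arrays left out that value ran from -0.36 to 0.24. The causes were not tested.

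Leaving out each array in turn gave these ranges of members called and of all probe sets called: 0 to 1 and 219 to 812 at 300 nM, 6 to 9 and 1152 to 3936 for ICRF-193, 0 to 3 and 202 to 1454 for their difference, 0 to 1 and 172 to 865 for the dose trend, 0 to 3 and 374 to 2446 for Top1 shRNA, and 0 and 0 to 525 for Top2b shRNA. Among the members called with ICRF-193, those of Rgs8, Rgs10 and Rgs17 and 2 of the 3 probe sets of Rgs4 were called under every alternative run. With 3 arrays a group, no member passed with a difference under 0.9 in size for either shRNA or under 0.5 at 300 nM.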
